A study of Mus musculus with 6 samples.

Results

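The calcium, calcineurin and NFAT genes examined here were Stim1, Stim2, Orai1, Itpkb, Ppp3ca, Ppp3cb, Nfatc1, Nfatc2, Nfatc3 and Rcan1, 10 genes chosen by name from the 22180 that had a probe set naming them alone. Each of the 10 had 1 such probe set. Their levels were compared between wild-type and Ets1-/- C57BL/6 mice of 5 to 6 weeks, with 3 Affymetrix arrays per genotype and no treatment. Thymocytes carrying both CD4 and CD8 (double-positive cells) were isolated on magnetic beads after formaldehyde fixation. Ets1 encodes a DNA-binding factor that gave the ETS family its name, and the labels name no Cre, promoter or transgene and do not describe how the Ets1 allele was made. Litter-mate cohorts served as biological replicates per the labels, and the sources used here do not say how many animals gave 1 array.

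When the T-cell receptor of a thymocyte binds its ligand, phospholipase C makes inositol trisphosphate, which opens receptors in the endoplasmic reticulum and empties its calcium store. The sensors Stim1 and Stim2 then open the Orai channels of the plasma membrane. Calcium bound to calmodulin switches on the phosphatase calcineurin, which strips phosphates from NFAT factors so that they enter the nucleus. Calcineurin is needed for double-positive thymocytes to pass positive selection.

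Promoter windows of RefSeq (GRCm38.p6), cut to the 250 bases before each start site, were searched on both strands for CCGGAA, a word bound by ETS factors, and for GGAAAA, a word bound by NFAT. The table held 11 windows for 8 of the 10 genes, and windows for 3 of the 4 other pathway or target genes that passed the test below. Shown, with the matches in capitals, are all 4 of these windows that held either word. The windows of Stim1 (chr7:102267569-102267818, plus strand) and Atp2a3 (chr11:72960919-72961168, plus strand) held CCGGAA, and those of Ppp3cb (chr14:20546574-20546823, minus strand) and of 1 of 2 Rcan1 start sites (chr16:92400079-92400328, minus strand) held GGAAAA. All are written 5′ to 3′ in the direction of transcription.
Stim1: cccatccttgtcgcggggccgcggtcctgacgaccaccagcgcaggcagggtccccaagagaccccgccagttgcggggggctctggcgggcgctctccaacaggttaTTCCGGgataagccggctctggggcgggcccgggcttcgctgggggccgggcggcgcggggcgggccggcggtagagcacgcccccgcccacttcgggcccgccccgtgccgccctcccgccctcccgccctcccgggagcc
Ppp3cb: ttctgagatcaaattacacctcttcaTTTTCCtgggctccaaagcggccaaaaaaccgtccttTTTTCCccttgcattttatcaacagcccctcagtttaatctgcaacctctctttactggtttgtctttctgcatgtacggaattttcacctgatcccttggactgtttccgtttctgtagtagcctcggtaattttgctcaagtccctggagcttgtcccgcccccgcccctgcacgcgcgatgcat
Rcan1: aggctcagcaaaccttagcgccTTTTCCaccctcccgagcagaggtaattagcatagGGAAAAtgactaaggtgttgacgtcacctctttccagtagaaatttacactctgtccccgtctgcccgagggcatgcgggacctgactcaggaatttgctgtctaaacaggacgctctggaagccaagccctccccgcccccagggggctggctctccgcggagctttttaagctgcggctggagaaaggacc
Atp2a3: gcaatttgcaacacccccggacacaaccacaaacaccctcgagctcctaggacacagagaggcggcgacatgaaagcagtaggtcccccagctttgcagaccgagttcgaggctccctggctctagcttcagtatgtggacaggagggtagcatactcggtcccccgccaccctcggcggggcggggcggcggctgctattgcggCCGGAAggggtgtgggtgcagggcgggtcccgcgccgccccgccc
The Stim1 match lay 142 to 137 bases before the start site on the opposite strand, and the Atp2a3 match 45 to 40 bases before it. Ppp3cb had matches on the opposite strand at 224 to 219 and 187 to 182 bases before its start, and Rcan1 had 1 on each strand, at 228 to 223 and 193 to 188 bases. No matches overlapped. Over all 32851 windows, 12.03% held CCGGAA and 20.4% held GGAAAA, against 1 and 2 of the 11 windows of the 10 genes. A match is a run of letters and not a measured binding site, and which start sites the thymocytes used was not measured by these arrays.

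None of the 10 genes passed the test of the deposited log2 signals (limma adjusted p under 0.05 over all genes), where 1.86% of the 22180 genes did. At an unadjusted limma p under 0.05 there were 3, Stim2, Ppp3ca and Nfatc1, where 13.2% of all genes lay. The 3 Ets1-/- values lay wholly below the wild-type values for 4 of the 10 genes, Stim2, Itpkb, Ppp3cb and Nfatc1, and wholly above them for Ppp3ca. Over all genes these shares were 16.1% and 5.76%, together 21.9%. After each array was centred on its median, 1 of the 10 genes, Stim2, stayed wholly below and 1, Ppp3ca, wholly above, where 9.3% and 11.2% of all genes did, together 20.5%. The median difference, Ets1-/- minus wild type, was -0.29 for the 10 genes and -0.22 for all genes on the log2 scale. The 1 gene among the 10 that was called in any alternative was Ppp3ca, a catalytic subunit of calcineurin. It was called higher under quantile normalization (where 3.6% of all genes were called), median centring (3.36%), cyclic loess (3.5%), array weights (4.59%) and centring with a pseudocount of 16 on the linear scale (4.48%). With the pseudocount alone 0 of the 10 were called by limma, where 4.09% of all genes were, and above the 75th percentile of signal 0 of 7, where 8.66% were; with the replicate number as a block 0 of 10, where 1.4% were. In RNA from a whole cell preparation, fewer cells of a type and less RNA per cell cannot be told apart.

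**Figure D1:**
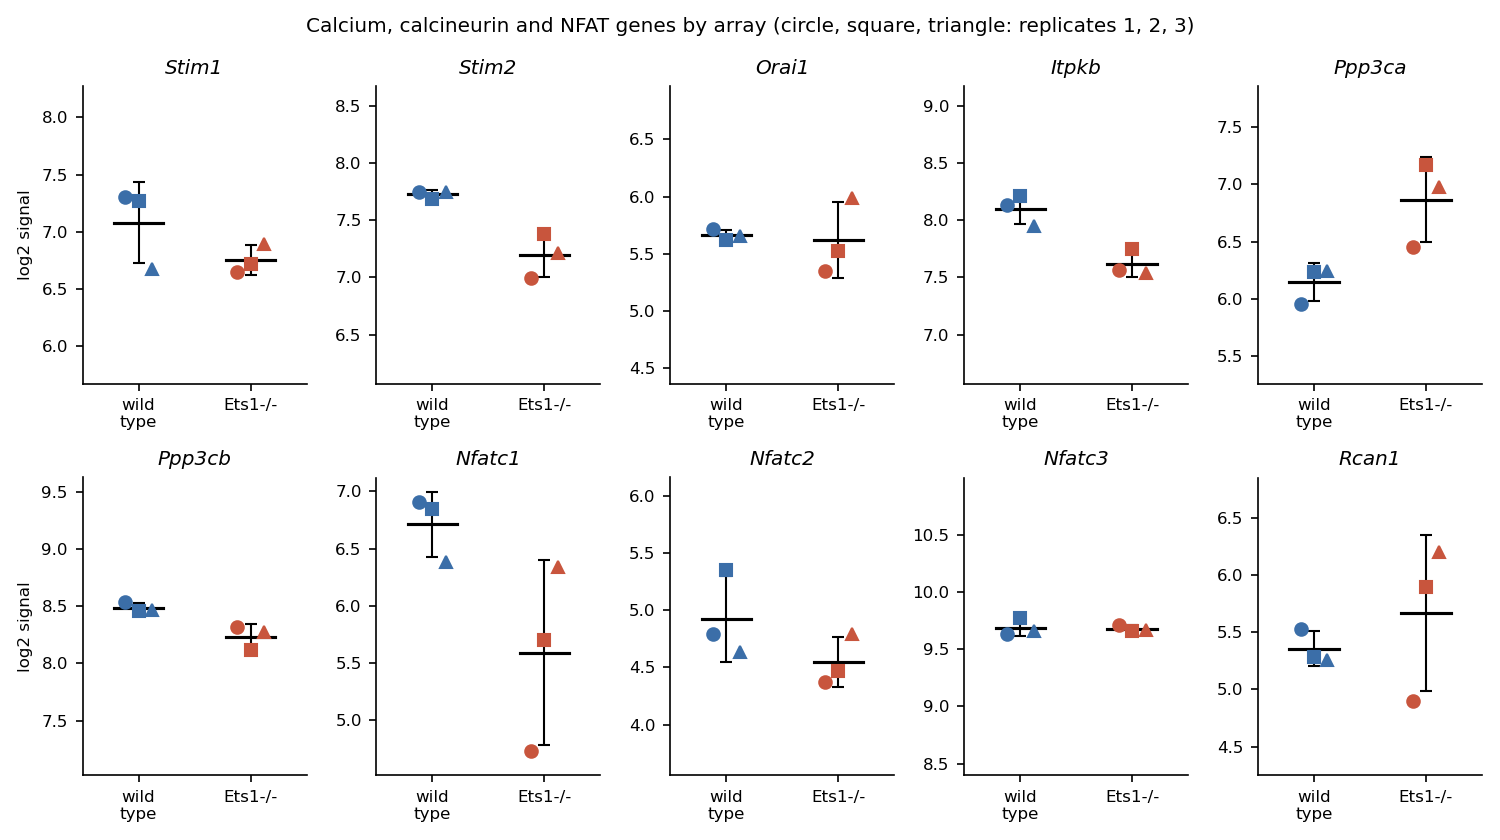
Log2 signal of the 10 genes on each array (vertical axes, all spanning the same number of log2 units) for wild-type (blue) and Ets1-/- thymocytes (red); symbols mark replicate numbers, long bars the mean and error bars the SD of 3 arrays. Ppp3ca lay higher on every Ets1-/- array, Stim2, Itpkb, Ppp3cb and Nfatc1 lay lower, and the other 5 genes overlapped.

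The arrays differed in median signal. The median of all probe sets was 3.66 on Ets1-/- replicate 1 and 4.19 to 4.33 on the other 5 arrays, and replicate 1 held the lowest of the 3 Ets1-/- values for 79.6% of all genes and for 7 of these 10. Some bright genes were not lowest there. On Ets1-/- replicates 1, 2 and 3 Nfatc3 was at 9.71, 9.66 and 9.66 and Cd4 at 11.07, 11.15 and 11.01. Ets1 itself had a mean of 9.198 ± 0.11 in wild type against 9.09 ± 0.27 (SD over 3 arrays of each genotype), and the sources do not say whether its probes lie in the deleted part, so the genotype was not checked by this signal. The double-positive markers were present: the summed signal of 8 measured markers, as log2, was 13.47 to 13.51 in wild type and 13.40 to 13.51 in Ets1-/-, with 1 marker, Ptcra, called higher. Markers of other cells differed with the genotype. The summed signal of 10 macrophage markers was 9.48 to 9.78 against 11.88 to 12.31 (9 called higher), that of 9 dendritic-cell markers 8.38 to 8.61 against 11.53 to 11.67 (5 higher), that of 7 measured B-cell markers 6.35 to 6.80 against 8.48 to 9.63 (3 higher) and that of 6 measured markers of mature T cells 7.23 to 7.60 against 9.66 to 9.97 (4 higher). Of the mature T-cell markers that were not called, Ccr7 differed by -0.07 with overlapping groups (limma adjusted p = 0.924). Il7r, also not called, was higher without overlap (limma adjusted p = 0.0663). Of 7 markers of stroma and endothelium 0 were called by limma and 1, Pecam1, had an unadjusted p under 0.05, with sums of 7.96 to 8.48 and 6.79 to 7.61. Those sums are mostly Pecam1, with means of 7.68 and 6.42, since the next brightest of the list, Epcam, had 4.707 and 4.325 with overlapping groups. Of 3 measured platelet markers Pf4 was called higher, with sums of 5.75 to 5.87 and 6.20 to 7.02. Itga2b and Gp9, the others measured, differed by -0.22 and -0.29 with overlapping groups (limma adjusted p = 0.775 and 0.656). Ms4a1 was the 1 marker with a value at or below 0, in wild type. The 5 dendritic-cell markers called higher, H2-Aa, H2-Ab1, H2-Eb1, Irf8 and Itgax, are also made by B cells or macrophages. Of the other 4, Flt3 differed by 0.03, Zbtb46 by -0.38, Xcr1 by -1.15 and Siglech by 0.81, with limma adjusted p of 0.973, 0.570, 0.266 and 0.350, and these 9 are named because of their values. The part of these cells in the values below was not tested.

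Store-operated entry was represented by 3 genes. Stim2, the sensor that responds to small losses of store calcium, had log2 signals of 7.74, 7.68 and 7.75 in wild type and 6.99, 7.38 and 7.21 in Ets1-/-. All Ets1-/- values were below all wild-type values, and the difference was -0.53 ± 0.22 (SE; 95% interval -1.04 to -0.03; limma adjusted p = 0.354). Stim1, the sensor that drives most of the entry in T cells, had 7.30, 7.27 and 6.68 against 6.65, 6.72 and 6.89. The groups overlapped because wild-type replicate 3 lay among the Ets1-/- values, and the difference was -0.33 (95% interval -0.92 to 0.26; adjusted p = 0.613), or -0.12 after centring. The pore subunit Orai1 had 5.71, 5.62 and 5.66 against 5.35, 5.52 and 5.99. Its Ets1-/- values lay on either side of the wild-type values, its difference of -0.05 had a 95% interval of -0.61 to 0.52, and its sign turned to 0.17 with median centring.

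Itpkb phosphorylates inositol trisphosphate to the tetrakisphosphate and is needed for thymocyte selection. Its signals were 8.13, 8.21 and 7.95 in wild type and 7.57, 7.75 and 7.53 in Ets1-/-. The groups did not overlap, and the difference was -0.48 ± 0.22 (SE; 95% interval -0.98 to 0.02; limma adjusted p = 0.399). After median centring the groups overlapped and the difference was -0.27. It was -0.434 with quantile normalization and -0.374 with cyclic loess (limma adjusted p = 0.276 and 0.343).

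The catalytic subunits of calcineurin are represented by 2 genes. Ppp3ca, the alpha catalytic subunit, had 5.95, 6.23 and 6.25 in wild type and 6.45, 7.17 and 6.98 in Ets1-/-. Every Ets1-/- value was above every wild-type value, and the difference was 0.72 ± 0.26 (SE; 95% interval 0.12 to 1.33; limma adjusted p = 0.291), a fold of 1.65. With each array centred on its median the values were 5.90, 6.14 and 6.07 against 6.95, 7.02 and 6.95, the SD within Ets1-/- was 0.04 in place of 0.37 (n = 3), and the difference of 0.93 passed the test (limma adjusted p = 0.0318, where 3.36% of all genes passed). Quantile normalization gave 0.87 (adjusted p = 0.0441) and cyclic loess 0.91 (adjusted p = 0.0384), while leaving out any 1 array of the deposited values gave 0.57 to 0.93 with adjusted p of 0.0882 to 0.577. Ppp3cb, the beta catalytic subunit, had 8.54, 8.45 and 8.46 against 8.32, 8.11 and 8.27. Those groups did not overlap either, in the opposite direction, with a difference of -0.25 (95% interval -0.73 to 0.23; adjusted p = 0.629) that was -0.04, with overlapping groups, after centring. With quantile normalization the Ppp3cb difference was -0.234 and with cyclic loess -0.17 (limma adjusted p = 0.57 and 0.734).

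The difference between both subunits on the same array does not depend on a shift common to all probe sets of that array. Ppp3ca minus Ppp3cb was -2.58, -2.22 and -2.22 in wild type and -1.86, -0.95 and -1.29 in Ets1-/-. The groups did not overlap, and the change was 0.97 on the log2 scale (two-sided exact permutation p = 0.1, the smallest that 3 arrays against 3 allow; 0.25 adjusted over the 5 pairs compared). Such a difference compares the 2 probe sets with each other and does not say whether either of them changed. A shift that varies with signal level would remain in it, since Ppp3ca was dimmer than Ppp3cb on every array.

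**Figure D2:**
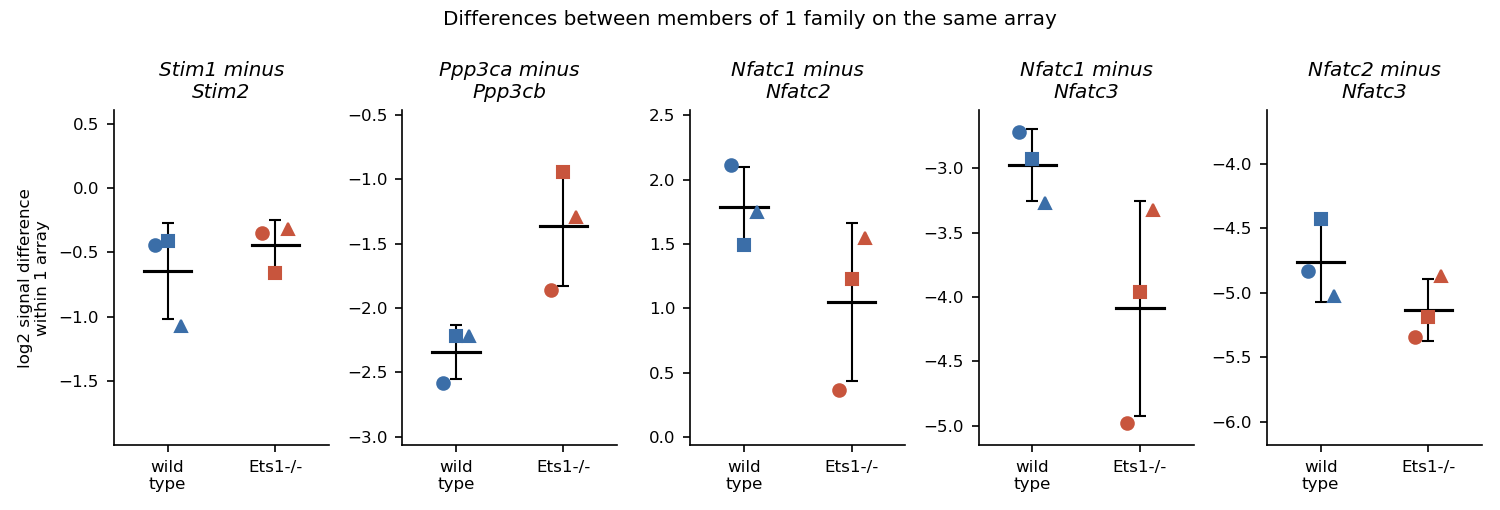
Difference in log2 signal between 2 genes of 1 family on the same array (vertical axes) for wild-type (blue) and Ets1-/- (red) arrays; symbols mark replicates 1, 2 and 3, bars the mean and SD. Ppp3ca minus Ppp3cb had means of -2.34 and -1.37 and Nfatc1 minus Nfatc3 of -2.97 and -4.09, both without overlap, while the other 3 pairs overlapped.

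Ppp3ca had the smallest p of the 10 genes, so the genes most like it over the 6 arrays were listed, among 6245 others above the 75th percentile of signal. On median-centred values they were Gdpd1, Tmem202, Ptger4, Cpsf4l and Fam71b, with Pearson r of 0.997, 0.994, 0.993, 0.992 and 0.990. These are descriptions over 6 points that share their arrays and fall into 2 genotypes. Of the 5 genes Cpsf4l and Fam71b passed the test on the deposited values, where 1.86% of all genes did. Their differences were 2.96 and 4.73 (limma adjusted p = 0.00134 and 0.000282). The centred Ppp3ca values separate the genotypes, so a difference in genes chosen for likeness to them was set by the choice.

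The 3 NFAT factors ranged from a difference near 0 to the widest of the 10 genes, and 0 of them were called by limma. An unadjusted p under 0.05 was found for 1, Nfatc1, where 13.2% of all genes lay. Nfatc1, which many lymphocytes induce on activation, had 6.91, 6.84 and 6.38 in wild type and 4.73, 5.70 and 6.34 in Ets1-/-. The groups were separated by the narrow gap between replicates 3 of both genotypes, and the Ets1-/- values spread widely (SD 0.81 against 0.29, n = 3 each). The difference of -1.12 ± 0.41 (SE; 95% interval -2.07 to -0.17) was the largest in size of the 10 and did not pass (limma adjusted p = 0.293). Without Ets1-/- replicate 1, whose value was lowest, it was -0.69 (adjusted p = 0.349), and after centring the groups overlapped. Nfatc2, a main NFAT factor of mature T cells, had 4.80, 5.35 and 4.63 against 4.37, 4.47 and 4.79. Its groups overlapped, with a difference of -0.38 (95% interval -1.01 to 0.25; adjusted p = 0.587). It was -0.17 without wild-type replicate 2, the highest value, and -0.17 after centring (adjusted p = 0.866 and 0.849).

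Nfatc3 is the NFAT factor most associated with double-positive thymocytes. Its signals were 9.63, 9.77 and 9.66 in wild type and 9.71, 9.66 and 9.66 in Ets1-/-, the narrowest spread of the 10 genes, with 0.14 between the lowest and the highest array. The difference was -0.01 (95% interval -0.48 to 0.47; limma adjusted p = 0.991), and as a ratio of Ets1-/- to wild type the interval ran from 0.716 to 1.38. Median centring, which shifts every probe set of Ets1-/- replicate 1 by the same amount, widened the range of Nfatc3 to 0.73 and moved its difference to 0.205 (adjusted p = 0.781). On the same arrays Nfatc1 minus Nfatc3 changed by -1.11 without overlap (exact permutation p = 0.1; 0.25 adjusted over the 5 pairs). Nfatc1 was dimmer than Nfatc3 on every array, so a shift that varies with signal level would remain in this difference too.

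Rcan1 encodes a calcineurin regulator, and the shorter of its transcripts is itself induced by calcineurin and NFAT. It had 5.53, 5.28 and 5.25 in wild type and 4.90, 5.89 and 6.20 in Ets1-/-. Replicates 2 and 3 of Ets1-/- were above all wild-type values and replicate 1 was below them. The difference was 0.31 (95% interval -0.51 to 1.13; limma adjusted p = 0.717) and went with single Ets1-/- arrays: it was 0.69 without replicate 1 (adjusted p = 0.195), 0.20 without replicate 2 (adjusted p = 0.811) and 0.04 without replicate 3 (adjusted p = 0.961). The sources do not say whether its probes read the transcript that begins at the start site shown above.

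Other genes of the pathway were read from a list of 44 genes, of which 35 were measured. Of these 3 fell and 0 rose, where 0.568% of all genes fell and 1.29% rose (a split of 126 to 287, and of 423 to 484 with the pseudocount). The 3 that fell were Tespa1, Orai2 and Atp2a3. At an unadjusted limma p under 0.05 there were 10 of the 35, where 13.2% of all genes lay. Above the 75th percentile of signal, where 22 of the 35 lay, falls outnumbered rises over all genes as well, with 310 lower and 231 higher of 6246, and 6 of the 22 were called, all lower. The median of the 35 was -0.39, against -0.22 for all genes. This list and the NFAT target list below were chosen with earlier results of these data known, and neither was tested as a set.

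Tespa1, a thymocyte protein that binds inositol trisphosphate receptors and is needed for positive selection, had 8.39, 8.47 and 8.64 in wild type and 6.64, 6.89 and 6.83 in Ets1-/-. The groups lay far apart, with a fall of 1.72 ± 0.22 (SE; limma adjusted p = 0.00811), 3.29-fold. It was called in all 17 alternatives run, the omission of each array among them, with adjusted p up to 0.0427. Next to it in the list, Plcg1, the phospholipase that makes inositol trisphosphate, had 8.31 ± 0.19 against 7.35 ± 0.38 (SD, n = 3 each; adjusted p = 0.158), and the inositol trisphosphate receptor Itpr2 had a difference of -0.44 (adjusted p = 0.462). Plcg1 was called lower in 4 of 17 alternatives, the pseudocount among them (-0.90, adjusted p = 0.0400). Itpr2 was called lower in 1 of 17, with limma's trend and robust options (adjusted p = 0.0349).

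Orai2, a channel subunit that joins Orai1 in mixed channels, had 6.97, 7.34 and 7.18 in wild type and 5.71, 6.04 and 5.42 in Ets1-/-. All Ets1-/- values were lower, and it fell by 1.44 ± 0.25 (SE; limma adjusted p = 0.0340), 2.71-fold. Each of the 6 fits on 5 arrays lost the call, with differences of -1.60 to -1.29 and adjusted p of 0.0630 to 0.142. Kcnn4, a calcium-activated potassium channel that sustains calcium entry, had 7.99 ± 0.14 against 6.90 ± 0.25 (SD, n = 3 each; adjusted p = 0.0727), and was called lower in 8 of 17 alternatives, quantile normalization (-0.999, adjusted p = 0.0254) and cyclic loess (-0.96, adjusted p = 0.0244) among them. Saraf, an inhibitor of store-operated entry, had a difference of -0.74 without overlap (adjusted p = 0.213), and was called lower in 3 of 17 alternatives.

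Atp2a3, the endoplasmic reticulum calcium pump of blood cells, had 7.33, 7.31 and 7.22 in wild type and 5.34, 5.66 and 6.26 in Ets1-/-. The groups did not overlap, and it fell by 1.53 ± 0.28 (SE; limma adjusted p = 0.0415), 2.88-fold. Of the fits without 1 array, the one without Ets1-/- replicate 3 kept the call (adjusted p = 0.0330), and the other 5 gave adjusted p up to 0.145. The widely expressed pump Atp2a2 had a difference of -0.03 (95% interval -0.53 to 0.48), the mitochondrial uniporter Mcu -0.92 (adjusted p = 0.391) and the plasma membrane pump Atp2b4 0.64 (adjusted p = 0.440). Atp2b4 lay at 2.97 and 3.61, below the median of all probe sets (4.13), with overlapping groups, and its difference was 0.26 with the pseudocount. The brighter plasma membrane pump Atp2b1 had 7.38 against 7.78 without overlap, a difference of 0.40 (limma adjusted p = 0.486).

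Of 6 measured genes for other calcineurin subunits, binding proteins and inhibitors 0 were called by limma. An unadjusted p under 0.05 was found for 1 of them, where 13.2% of all genes lay. The inhibitor Rcan2 had a difference of -0.60, the gamma catalytic subunit Ppp3cc 0.65 and Fkbp1a, which binds calcineurin in complex with the drug tacrolimus, -0.24 (adjusted p = 0.300, 0.555 and 0.639). Rcan2 lay at 3.69 and 3.08, below the median of all probe sets, and its difference was -0.237 with the pseudocount. Of 8 measured genes for other NFAT factors, their kinases and scaffolds 0 were called. At an unadjusted limma p under 0.05, where 13.2% of all genes lay, there were 2. These were the scaffold Homer3 at -0.69 and the calcineurin-independent factor Nfat5 at -0.60 (limma adjusted p = 0.297 and 0.304). The NFAT kinase Dyrk2 was at -0.50 (adjusted p = 0.476).

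**Figure D3:**
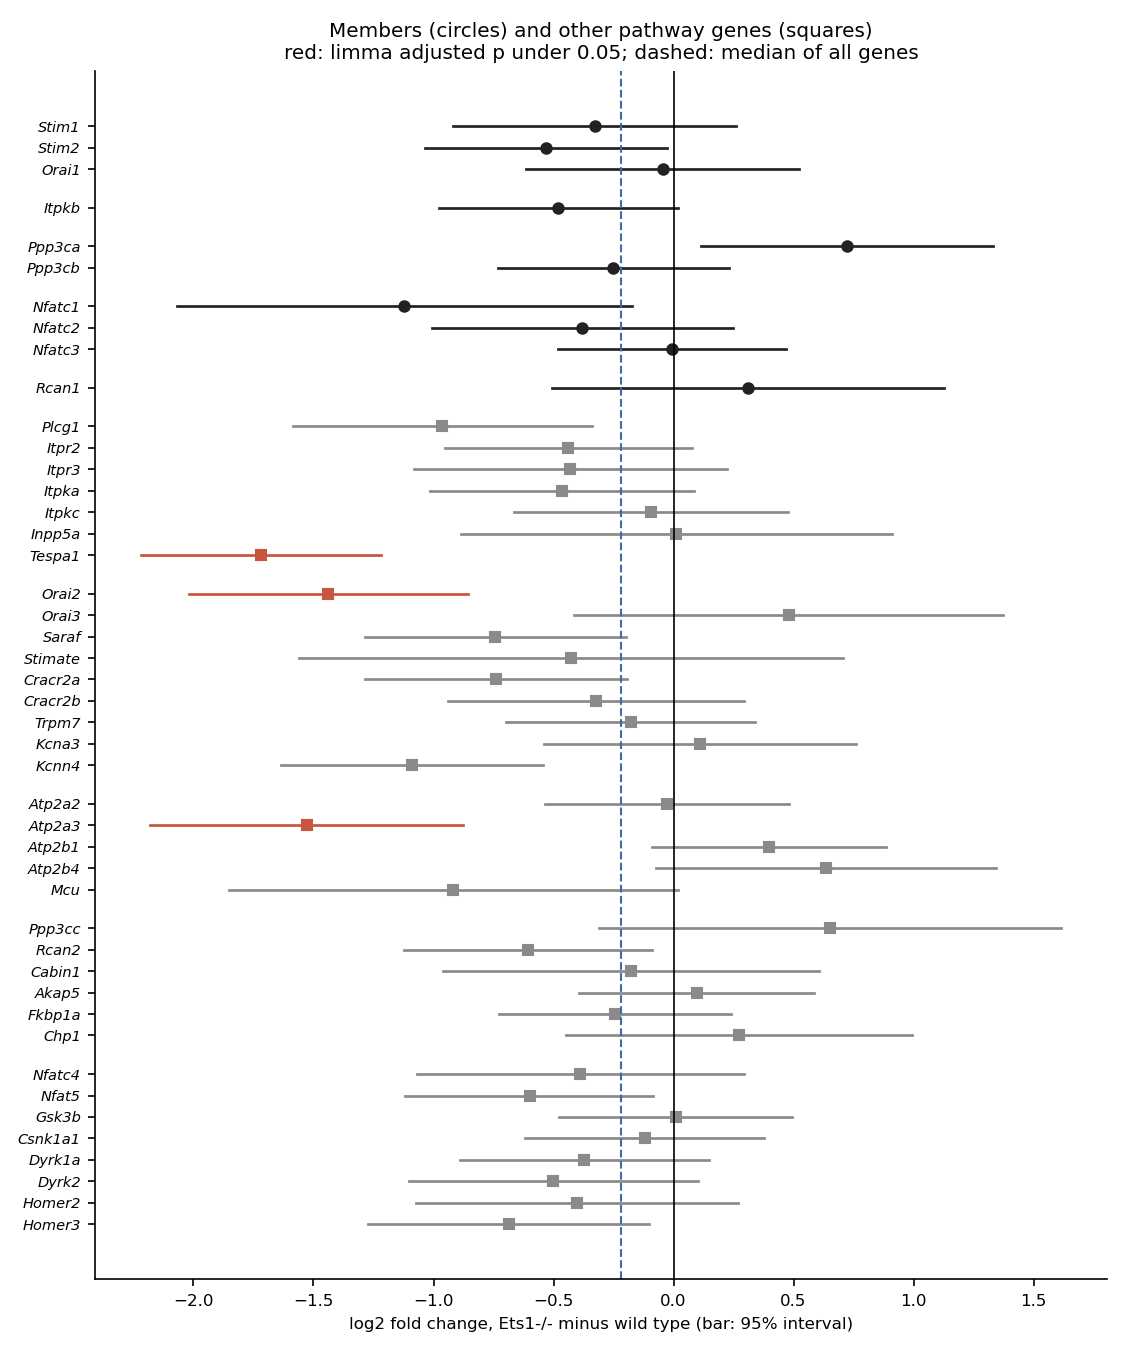
Log2 fold change, Ets1-/- minus wild type (horizontal axis), with 95% intervals from limma for the 10 genes (circles) and 35 other measured genes of the pathway (squares); red marks an adjusted p under 0.05, the solid line 0 and the dashed line the median of all genes at -0.22. Tespa1, Orai2 and Atp2a3 stand to the left, and Ppp3ca is the 1 circle whose interval lies wholly above 0.

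A list of 16 genes that NFAT factors are known to induce in T cells held 1 that rose and 0 that fell, where 1.29% and 0.568% of all genes did, and 5 had an unadjusted limma p under 0.05, where 13.2% of all genes lay. Irf4, a lymphocyte transcription factor that B cells and dendritic cells also make, had 2.85, 2.54 and 2.25 in wild type and 4.11, 4.78 and 5.15 in Ets1-/-. The groups did not overlap, and it rose by 2.13 ± 0.32 (SE; limma adjusted p = 0.0184), or by 0.94 with a pseudocount of 16 (adjusted p = 0.0207), since its wild-type signal lay below 4.13, the median of all probe sets. Of the 6 fits on 5 arrays, those that left out replicate 2 or 3 of either genotype lost the call (adjusted p up to 0.0842). On the full set of arrays the summed B-cell markers and the 5 shared dendritic-cell markers given above were higher in Ets1-/- too, and their part in Irf4 was not tested.

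The orphan receptor Nr4a1, a gene induced by receptor signals, had 6.89, 7.09 and 6.91 in wild type and 5.62, 6.27 and 6.20 in Ets1-/-. All Ets1-/- values were lower, the difference was -0.93 (limma adjusted p = 0.149), and it was called lower in 6 of 17 alternatives, quantile normalization among them (-0.78, adjusted p = 0.0419). The costimulatory ligand Cd40lg had 3.51 ± 0.02 against 4.17 ± 0.16 (SD, n = 3 each; adjusted p = 0.227). Its wild-type signal lay below the median of all probe sets, and its difference of 0.66 was 0.31 with the pseudocount. Egr2, of the same list, went the other way from Nr4a1 without overlap. It had 7.333 ± 0.335 against 8.028 ± 0.164 (SD, n = 3 each; limma adjusted p = 0.295). Of the 16 genes 4 lay wholly higher in Ets1-/- and 1 wholly lower, where 5.76% and 16.1% of all genes did. The median of the 16 was 0.06, with 9 above 0 and 7 below.

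**Figure D4:**
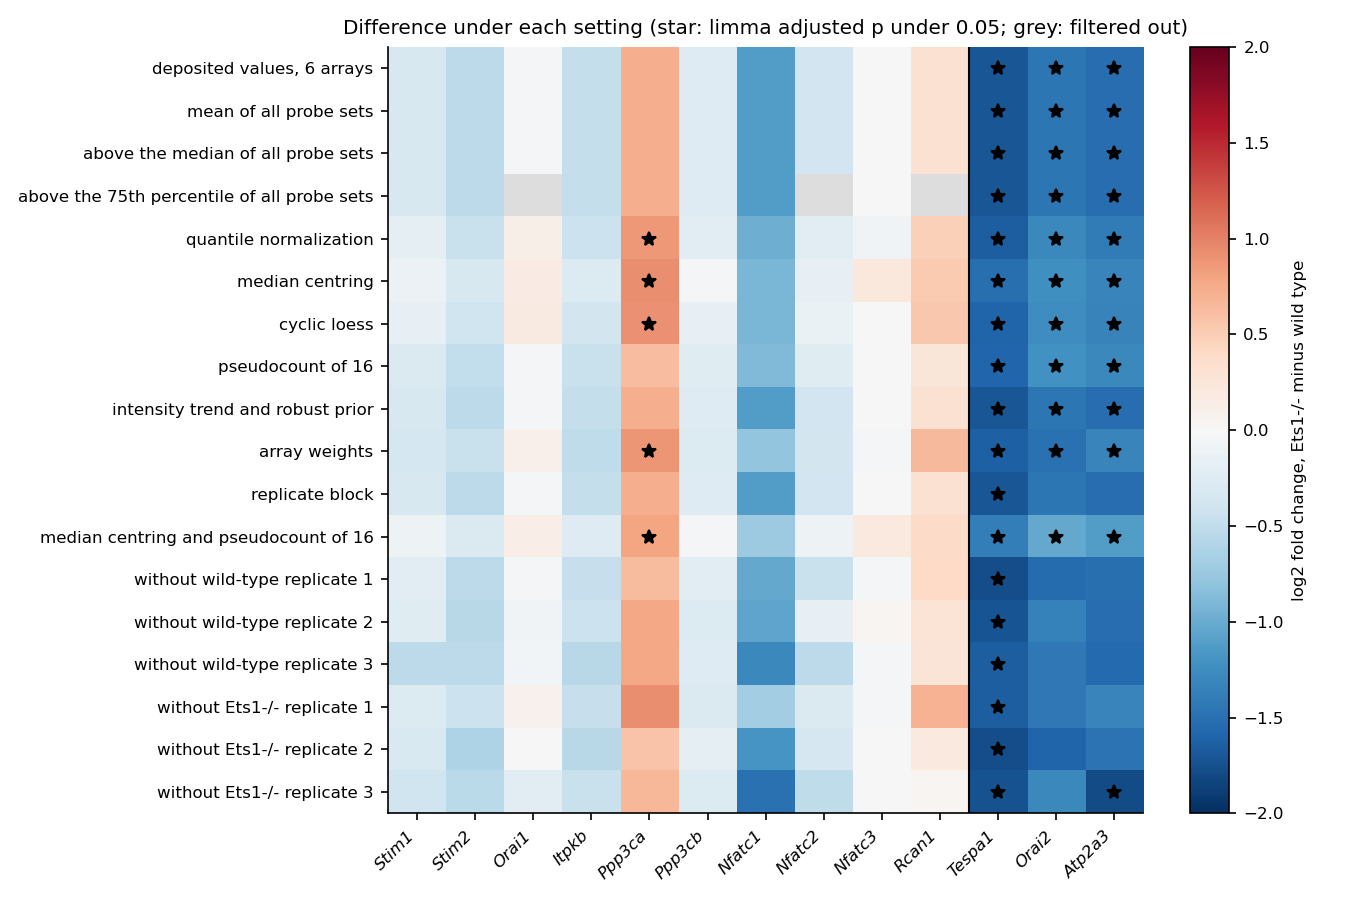
Log2 fold change, Ets1-/- minus wild type (colour), of the 10 genes and of Tespa1, Orai2 and Atp2a3 (columns) under the deposited values and 17 alternatives (rows); a star marks a limma adjusted p under 0.05 and grey a gene that was filtered out. Tespa1 has a star in every row, and among the 10 genes Ppp3ca alone has stars, in 5 rows.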

How the data were processed

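RNA of double-positive thymocytes was measured on 6 arrays, 3 per genotype, and each array held its own column. The authors deposited log2 values for 41345 probe sets. Their range, -15.86 to 16.36, gave the scale. The submitters' processing notes name affy. Its version, the background correction and the normalization were not given in the sources used here, nor was the build, and the array medians differ. Precision is limited by the number of arrays.

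Probe sets naming 1 gene (23521; 1814 named several and 16010 none here) were matched by gene ID to RefSeq (23328 matched), and the brightest represented each gene. Differences were fitted over all genes with limma 3.58.1 in R 4.3.3 (lmFit, eBayes, two-sided, Benjamini-Hochberg, threshold 0.05), and every adjusted p is from such a fit unless said otherwise. The fit was tested on simulated data with independent noise for each gene and no shift of a whole array. That test does not cover the differences in array median seen here. Folds are ratios of geometric means. p-values measure the spread among these arrays. Marker sums are log2 of summed linear signals. Within-array differences were tested with exact permutations (scipy 1.17.1). Deviations of same-numbered arrays from their group means correlated at -0.07, -0.01 and -0.05 over all genes. These values show no shared deviation by replicate number and cannot tell whether same-numbered arrays shared a litter.

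The genes, lists and tests were chosen with earlier results of these data known. Named are the 10 genes, list genes past the test, up to 3 genes with the smallest p per list row, up to 2 markers per list, Ets1, and 5 genes most like the gene with the smallest p. Further markers, Egr2, Atp2a2 and Atp2b1 are named because of their values. The pair differences and the gene families under other observations were chosen after seeing the data. Listed genes and markers with no probe set that named them alone were not analysed here. Alternatives were averaging a gene's probe sets, keeping genes above the median or the 75th percentile of signal, 3 normalizations, a pseudocount of 16, limma's trend and robust options, array weights, a replicate block and the omission of each array.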

Additional observations from a re-analysis of the deposited data

How the results depend on the processing

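Over all genes 413 were called (287 higher, 126 lower), 798 with quantile normalization, 745 with median centring, 777 with cyclic loess, 907 with a pseudocount of 16 (484 higher, 423 lower), 1172 with the intensity trend, 1019 with array weights, 993 with centring and pseudocount together, which was chosen after seeing the data, and 190 to 379 without 1 array. Of the 10 genes 1, Ppp3ca, was called with quantile normalization, centring, cyclic loess, array weights, or centring and pseudocount, and 0 in the other alternatives, the omission of each array included. Of the pathway list 3 were called, 6 above the 75th percentile, 6 with the pseudocount, 7 with the trend, 5 with centring and pseudocount, and 1 to 2 without 1 array; all of these were lower, where the calls over all genes were 231 higher and 310 lower above the 75th percentile and 618 higher and 554 lower with the trend. Of the NFAT target list 1 was called, higher. With quantile normalization, cyclic loess, pseudocount, array weights, or centring and pseudocount 2 were called, 1 higher and 1 lower, and with the trend 3, all higher. Above the median of signal, a filter that left 8 of the 16 and removed Irf4, 0 were called. Above the 75th percentile 1 of 3 was called, Nr4a1, lower (limma adjusted p = 0.0385). Without 1 array 0 to 1 were called. With the replicate block 311 genes were called, 1 of the pathway list (Tespa1) and 0 of the targets. Orai2, Atp2a3 and Irf4 lost the call there (limma adjusted p = 0.0719, 0.0846 and 0.053).

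Signs turned only for genes near 0. Orai1 was at 0.11, 0.17, 0.18, 0.105 and 0.13 with quantile normalization, centring, cyclic loess, array weights, and centring and pseudocount, and at -0.229 to 0.092 without 1 array. Nfatc3 was at 0.205 with centring, 0.005 with cyclic loess, 0.201 with centring and pseudocount and -0.035 to 0.036 without 1 array. Ets1 was at 0.108 with centring, 0.106 with centring and pseudocount and -0.194 to 0.049 without 1 array. The cause of these moves was not tested. The filter at the 75th percentile gave no value for Orai1, Nfatc2 and Rcan1.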

Other observations

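Genes of other calcium-handling families, grouped by the start of their symbols after the data had been seen, are given beside the 1.86% of all genes that were called and the 13.2% with an unadjusted limma p under 0.05. Of 25 subunits of voltage-gated calcium channels 1 rose, Cacna1e, the pore subunit of the R-type channel, from 5.09 ± 0.21 to 6.71 ± 0.33 (SD, n = 3 each; limma adjusted p = 0.0226), or by 1.28 instead of 1.63 with a pseudocount of 16. Of 20 potassium channel genes of the Kcna, Kcnm and Kcnn families 1 fell, Kcnmb4, an accessory subunit of the large-conductance calcium-activated channel, from 6.66 ± 0.29 to 4.81 ± 0.37 (adjusted p = 0.0184). Of 23 TRP channels, 7 P2X receptors and 8 sodium-calcium exchangers 0 were called by limma, with 5, 3 and 0 at an unadjusted p under 0.05.

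Of 16 calcium-binding S100a proteins 2 rose and 0 fell. S100a6 went from 5.44 ± 0.79 to 9.83 ± 0.24 and S100a4 from 6.30 ± 0.57 to 9.48 ± 0.24 (SD, n = 3 each; limma adjusted p = 0.00198 and 0.00315). Both are known from macrophages and mature T cells, whose marker sums were also higher in Ets1-/-. Ccr7 of the mature T-cell list was not higher, and the part of macrophages and mature T cells was not tested. Of 11 annexins, calcium-dependent membrane-binding proteins, 1 rose, Anxa4, by 2.73 (adjusted p = 0.0281), or by 1.80 with the pseudocount.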
